A study of Danio rerio with 9 samples.

Results

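The long arm of zebrafish chromosome 4 was taken as every entry of the 3 deposited tables whose locus starts at position 30000000 or beyond on chromosome 4 of the danRer7 build, with or without a gene name. That gave 342 of 29280 entries in the table of 16 µM PFBS and control, 277 of 26901 entries in the table of 32 µM PFBS and control, and 338 of 29163 entries in the table of 32 µM and 16 µM PFBS. The last locus on the chromosome ends at 62093954, so the arm so defined is 32.1 Mb long. An entry is a transcribed gene model with its locus, several entries can share 1 locus, and many carry no gene name. The rule uses position alone, with no measured value, though it was set with earlier results of these data known.

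Embryos of the AB strain, a laboratory line, were exposed to perfluorobutane sulfonate (PFBS), a perfluorinated sulfonate with a short carbon chain, and polyadenylated RNA of whole animals was sequenced with strand-specific libraries at 96 h after fertilization. The groups were 16 µM PFBS, 32 µM PFBS and a solvent control with 0.01% DMSO, with 3 samples each and 15 pooled embryos per sample. The labels name DMSO for the control alone and do not say whether the PFBS groups carried it. In bulk RNA of whole embryos, fewer cells of a type and less RNA per cell cannot be told apart.

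Each table holds 1 FPKM value per group (mapped fragments adjusted for the length of the transcript and for library size), so no level has an error and the depth of each sample is unknown. The words rose and fell are kept for entries that the authors' deposited table gives with a q-value under 0.05; these are called entries. Differences between the long arm and the rest of chromosome 4 are descriptions with no test, because entries of a table are not replicates. Markers of the labelled source were present: actc1b of muscle stood at 15287 FPKM with 32 µM PFBS and 16158 FPKM in controls, and elavl3 of neurons at 77.7 FPKM with 32 µM PFBS and 76.6 FPKM in controls. krt4 of the epidermis, hbae1 of red blood cells, fabp10a of liver and try of the pancreas were also well above 1 FPKM in each group, while crygm2d of the lens had no entry of its own.

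As background, the long arm of chromosome 4 is known in zebrafish as a heterochromatic stretch that replicates late in S phase and is rich in repeats. It carries few of the conserved protein-coding genes found elsewhere in the genome. It holds large expanded families instead, among them C2H2 zinc finger genes, whose products bind DNA, and NLR genes, which encode intracellular receptors of innate immunity, as well as many copies of small nuclear RNA and 5S ribosomal RNA genes. In wild zebrafish its end is linked to sex, a link that the AB laboratory strain has lost. Copies that resemble each other share reads, so levels and ratios of single members of such families are uncertain.

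Transcribed entries were sparse on the long arm. The table of 16 µM PFBS and control held 10.7 entries per Mb on the long arm and 23.4 on the rest of chromosome 4, and the table of 32 µM PFBS and control held 8.63 and 21.9. The table of both doses held 10.5 entries per Mb on the long arm and 23.9 on the rest. The other 24 chromosomes ranged between 17.4 and 25.6 entries per Mb over the 3 tables, so each of them was denser than the long arm. Counted by distinct loci, the density was 8.94 per Mb on the long arm and 21.2 on the rest at 16 µM, and 7.14 and 20.2 at 32 µM. In the 32 µM table, the loci that start on the long arm covered 15.0% of the arm, with overlapping loci merged. Loci that start on the rest of the chromosome covered 59.0% of the rest. A locus that crosses the boundary was counted in full with the rest. The cover of the arm is thus understated and that of the rest overstated. A long locus of this kind is given below with the entries at the boundary.

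The sparse stretch was not the whole arm. Between 30 and 58 Mb there were 106 entries in the 32 µM table, or 3.79 per Mb, while the last 4.09 Mb held 171 entries, or 41.8 per Mb. The position of 58 Mb was chosen after the data were seen. Each entry was counted where its locus starts, so a locus can reach into a window that does not count it. In windows of 2 Mb, the 14 windows between 30 and 58 Mb held 0 to 11 entries each with a median of 8, against a median of 38 and a minimum of 6 over the 651 windows outside the long arm. The window from 58 to 60 Mb held 100 entries, a number that 4 of the 651 outside windows reached. In the 16 µM table the same window held 117 entries, and the windows between 30 and 58 Mb held 0 to 18. Stretches of 500 kb or more without any locus numbered 13 on the long arm and 1 on the rest of the chromosome in the 32 µM table, which has the fewest entries, and 7 and 1 in the 16 µM table. The longest on the arm was 1108 kb in the 32 µM table, from 42218475 to 43326838, and 921 kb in the 16 µM table, where the longest on the rest was 934 kb.

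Near its end the arm had loci that hold many entries. In the 16 µM table a single locus from 58469139 to 58917482, 448 kb long, held 34 entries, of which 29 were unnamed. The named ones there included the zinc finger genes znf1015 and znf989. The 32 µM table had its most shared locus at 58717694 to 58933302 with 22 entries. None of these entries passed the test in the authors' deposited tables (smallest q = 0.998 at 16 µM and 0.44 at 32 µM). Counted by distinct loci, the end from 58 Mb still held 31.5 loci per Mb and the stretch from 30 to 58 Mb 3.57 in the 32 µM table.

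**Figure D1:**
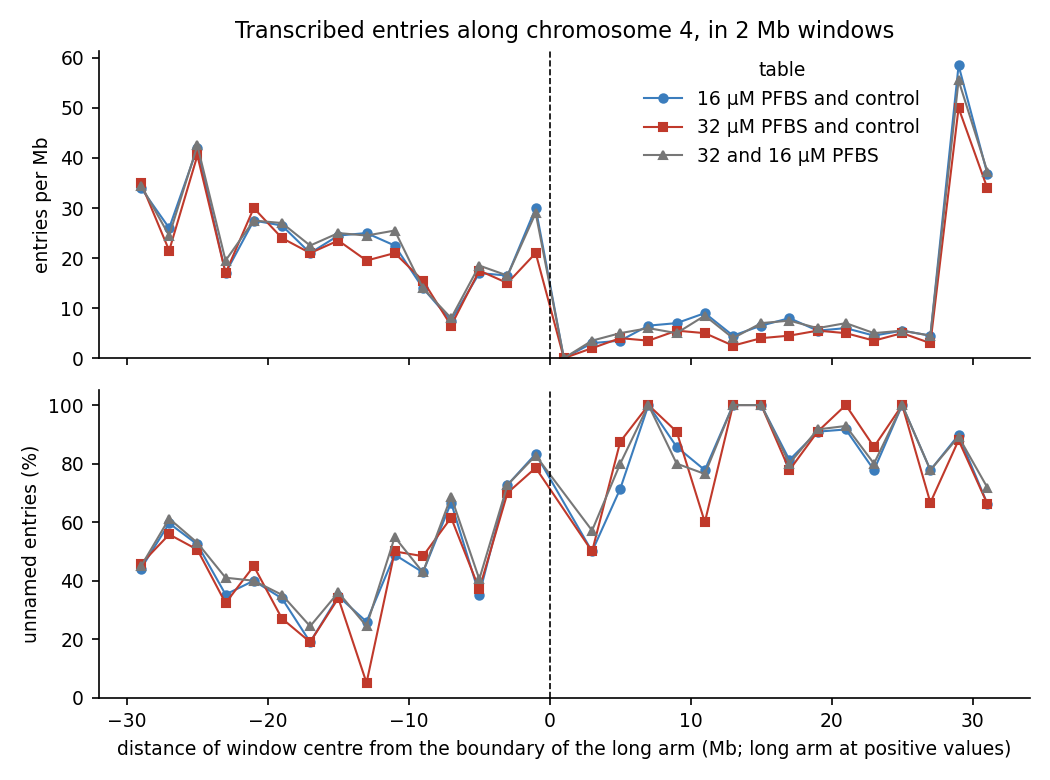
Entries per Mb (top) and the share of entries without a gene name in percent (bottom) in 2 Mb windows along chromosome 4, against the distance of the window's centre from the boundary in Mb, with the long arm at positive values and 1 line per table; the last, shorter piece of the chromosome is joined to its neighbour. Density is low from the boundary to 28 Mb beyond it and high in the last 2 windows, and the unnamed share already climbs before the boundary.

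Most entries of the long arm had no gene name. At 16 µM, 284 of its entries were unnamed, or 83.0%, against 46.3% on the rest of chromosome 4. The share was 81.9% on the long arm and 43.4% on the rest in the 32 µM table, and 84.0% and 47.6% in the table of both doses. Over the 3 tables the other 24 chromosomes ranged between 45.7% and 63.3%. The boundary at 30 Mb was not where this pattern began: between 28 and 30 Mb, outside the long arm, 78.6% to 83.3% of entries were unnamed in the 3 tables. Within the arm, 86.8% were unnamed from 30 to 58 Mb and 78.9% beyond 58 Mb in the 32 µM table.

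The entries themselves were short. The median span of a locus was 2097 bases on the long arm and 9581 bases on the rest of the chromosome in the 32 µM table. Loci under 300 bases made up 11.9% of the long-arm entries there and 3.04% of those on the rest. In the 16 µM table the same shares were 9.36% and 2.14%.

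Many of the names that were present were provisional. At 32 µM the long arm held 48 distinct names, and 24 of them, or 50.0%, were names of clones or provisional names with no other current symbol. On the rest of chromosome 4 this share was 7.08%, and on the other chromosomes it was 6.52%. Names that the table writes in the form zgc, used for sequenced cDNA clones, numbered 28 on the long arm, or 58.3%, against 2.72% on the rest, and some of these now have another symbol. Zinc finger genes recognisable by name made up 3 of the 48 long-arm names, or 6.25%, and 3 of 367 names on the rest, or 0.817%, at 32 µM. In the 16 µM table they made up 5 of 57 long-arm names, or 8.77%, and 3 of 369 names on the rest, or 0.813%. These shares rest on a handful of names. A name used for more than 1 entry was also more frequent: 31.5% of single-name entries on the long arm and 7.53% on the rest carried one at 16 µM, and 20.8% and 6.27% did at 32 µM. No entry of the long arm carried a name of the NLR or small RNA lists, and the single member of the combined NLR and TRIM list was trim24, a TRIM family gene. These counts rest on names alone, so NLR or small nuclear RNA genes among the unnamed entries would not be seen.

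The provisional genes of the sparse stretch were expressed at low levels. From 30 to 58 Mb, the 14 named entries of the 32 µM table had a median of 1.67 FPKM with 32 µM PFBS and 1.59 FPKM in controls. zgc:173619 was the highest of them, at 4.76 FPKM with 32 µM PFBS and 4.03 FPKM in controls, a log2 ratio of 0.24 in the authors' deposited table (q = 0.588). The zinc finger genes znf1069 and znf1137 stood at 1.72 and 1.42 FPKM with 32 µM PFBS, against 1.64 and 1.38 FPKM in controls. znf1015, the zinc finger gene in the crowded end, was higher at 8.82 FPKM with 32 µM PFBS and 8.28 FPKM in controls. The 3 zinc finger entries of that table had log2 ratios of 0.06 to 0.08 in the authors' deposited table, and the 6 at 16 µM had ratios of -0.20 to 0.36, with no q-value under 0.837.

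The end of the arm held the more abundant named genes. Its 36 named entries in the 32 µM table had a median of 4.72 FPKM with 32 µM PFBS and 4.52 FPKM in controls. cct2, which encodes a subunit of the CCT chaperonin that folds actin and tubulin, had the highest level of any named entry, at 274 FPKM with 32 µM PFBS and 276 FPKM in controls. It is the last locus of the chromosome, from 62092567 to 62093954, and a second entry of that name stood on chromosome 14 at 181 FPKM with 32 µM PFBS and 189 FPKM in controls. zgc:85975, now ckap4, which encodes a membrane protein of the endoplasmic reticulum, stood at 53.1 FPKM with 32 µM PFBS and 59.3 FPKM in controls. nup50, which encodes a component of the nuclear pore, stood at 26.0 FPKM with 32 µM PFBS and 25.3 FPKM in controls. pacsin2, whose product shapes membranes during endocytosis, stood at 13.5 FPKM with 32 µM PFBS and 13.4 FPKM in controls. zgc:154045, now rab21, a small GTPase of endosomes, was given as 3 entries at 34.3, 33.6 and 12.4 FPKM with 32 µM PFBS, against 36.3, 32.4 and 10.9 FPKM in controls. trim24, which encodes a regulator of transcription of the TRIM family, stood at 6.45 FPKM with 32 µM PFBS and 6.32 FPKM in controls. arfgap3, whose product acts on ARF GTPases at the Golgi, stood at 7.67 FPKM with 32 µM PFBS and 7.89 FPKM in controls. psmb10, listed as zgc:92791, a proteasome subunit, stood at 10.8 FPKM with 32 µM PFBS and 11.6 FPKM in controls.

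A cluster of ms4a17a genes, which belong to the MS4A family of proteins that span the membrane 4 times, lay between 60384986 and 60850658. Its 8 entries in the 32 µM table covered a wide range of levels. ms4a17a.11 was the highest, at 30.5 FPKM with 32 µM PFBS and 35.02 FPKM in controls, and ms4a17a.9 stood at 28.4 FPKM with 32 µM PFBS and 31.1 FPKM in controls. ms4a17a.1 was the lowest, at 0.835 FPKM with 32 µM PFBS and 1.38 FPKM in controls. Their log2 ratios in the authors' deposited table ran from -0.73 to 0.78 at 32 µM, 4 of them positive and 4 negative, and none passed the test (smallest q = 0.148, for ms4a17a.11). In the authors' deposited table for 16 µM the 8 ratios ran from -0.27 to 0.42 and again none passed.

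Levels were lower on the long arm than on the rest of the chromosome. The median entry of the long arm stood at 1.97 FPKM with 32 µM PFBS and 1.92 FPKM in controls, while that of the rest stood at 5.70 FPKM with 32 µM PFBS and 5.78 FPKM in controls. In the 16 µM table the long-arm median was 1.55 FPKM with 16 µM PFBS and 1.46 FPKM in controls, and the median of the rest was 5.03 FPKM with 16 µM PFBS and 4.99 FPKM in controls. Every entry of the 32 µM table reached 1 FPKM in at least 1 group, which was not so in the other tables, so medians of different tables are not on the same base. The gap was wide among named entries, with a median of 3.44 FPKM on the long arm and 9.58 FPKM on the rest with 32 µM PFBS. Among unnamed entries it was narrower, at 1.87 FPKM on the long arm and 2.53 FPKM on the rest.

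**Figure D2:**
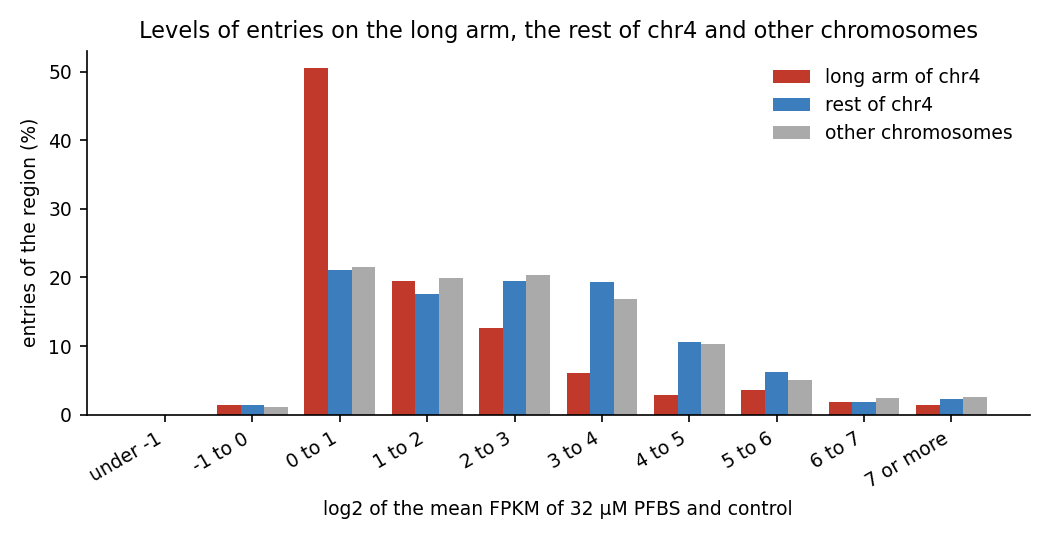
Share of the entries of each region in percent, by the log2 of the mean FPKM of 32 µM PFBS and control, for the long arm, the rest of chromosome 4 and the other chromosomes. The tallest bar of the long arm is the one between 0 and 1 on the log2 scale.

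Among its 10 highest entries, 9 were unnamed and 7 spanned under 300 bases. The highest lay at 49695517 to 49695633, a locus of 116 bases with 564 FPKM with 32 µM PFBS and 549 FPKM in controls. Another short one lay at 60007625 to 60007752, with 129.8 FPKM with 32 µM PFBS and 93.7 FPKM in controls. How far a level moves with the ends of a gene model could be read from the control samples, since the same 3 samples were quantified in 2 tables. For 18 unnamed long-arm loci that held 1 entry with identical ends in both tables, the control levels differed by a median of 0.01 and at most by 0.01 on the log2 scale. For 115 overlapping loci with different ends they differed by a median of 0.14 and at most by 3.28. That largest difference lay at a locus given as 58245602 to 58245845 at 10.1 FPKM in controls in 1 table, and as 58245703 to 58245829 at 98.4 FPKM in controls in the other.

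The comparison of 16 µM PFBS with the control asked which entries of the arm moved at the lower dose. Of the 342 entries, 4 passed the test in the authors' deposited table, 2 of them higher and 2 lower, or 1.17%. Over all entries of that table the share was 0.26%, or 0.113% higher and 0.147% lower, and on the rest of chromosome 4 it was 0 of 702. An unadjusted p-value under 0.05, as recovered from the authors' q-values, was found for 6 of these 702. It was found for 9 of the 342 long-arm entries, or 2.63%, and for 1.33% of all entries. The recovered p-values are upper bounds, because entries with a tied q-value, such as 0.998, all take the largest p-value of the tie. These counts are therefore minimums, and the true shares are not known. All 4 called entries of the long arm were unnamed.

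The comparison of 32 µM PFBS with the control gave more calls. Of the 277 entries, 8 passed in the authors' deposited table, 5 higher and 3 lower, or 2.89%. Over the whole table the share was 1.83%, with 0.959% higher and 0.87% lower, and on the rest of chromosome 4 it was 1.07%, or 7 of 657. Between 32 µM and 16 µM PFBS 2 of the 338 entries passed, both higher at 32 µM, or 0.592%, against 0.329% of all entries (0.233% higher and 0.096% lower). With so few called entries these shares are counts of a handful of loci. All 14 called entries, at 11 places, were unnamed. None of the 58, 50 and 54 named entries in the 16 µM, 32 µM and between-dose tables was called. Of all named entries 49 of 12783, 295 of 12412 and 54 of 12751 were called, in the same order. At such shares few or no calls would fall among so few entries. An unadjusted p-value under 0.05, as recovered from the authors' q-values, was found for at least 0, 5 and 1 of the named long-arm entries. At 32 µM these 5 were a share near that of all named entries of the table, of which 1453 of 12412, or 11.7%, had such a p-value. With named and unnamed entries together, 42 of the 277 long-arm entries at 32 µM had one, or 15.2%. It was 68 of 657 on the rest of chromosome 4 and 11.2% of all entries. The difference was not tested. At 16 µM and between the doses at least 1.89% and 3.22% of all named entries had one. At 16 µM the smallest q-value of a named long-arm entry was 0.998, a tied value, so the 0 there was fixed by the tie. Between the doses ties at 0.999 likewise hide smaller p-values. The counts of 0 and 1 therefore say nothing about the unadjusted p-values of the other named entries.

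Of the places where a locus rose, 1 was called at both doses, near the end of the arm at 61299597 to 61300139. It stood at 95.7 FPKM with 16 µM PFBS and 74.5 FPKM in controls, a log2 ratio of 0.36 in the authors' deposited table (q = 0.0219). At 32 µM it stood at 87.4 FPKM with PFBS and 69.6 FPKM in controls, a ratio of 0.34 in the authors' deposited table (q = 0.00521). The calls at both doses share the control samples and are not separate evidence. The neighbouring entry, 61294435 to 61298654, stood at 68.1 FPKM with 32 µM PFBS and 55.7 FPKM in controls and rose by a log2 ratio of 0.28 in the authors' deposited table (q = 0.00521). Its ratio at 16 µM was 0.14, with 61.4 FPKM with PFBS and 55.7 FPKM in controls, and did not pass in the authors' deposited table (q = 0.998). Both are among the more abundant entries of the arm, and both differed by less than 0.5 on the log2 scale.

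The place that fell at both doses lay within the sparse stretch, at 47430851 to 47437995. It stood at 0.624 FPKM with 16 µM PFBS and 1.25 FPKM in controls, a log2 ratio of -1.0 in the authors' deposited table (q = 0.0219). At 32 µM the matching entry stood at 0.747 FPKM with PFBS and 1.16 FPKM in controls, a ratio of -0.64 in the authors' deposited table (q = 0.00521). These levels are low, and with 1 FPKM added to every value the ratios were -0.47 at 16 µM and -0.31 at 32 µM. Here too the calls at both doses share the control samples. No entry of the table of both doses lay at this place.

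The other places were called at no more than 1 dose against the control. At 35857897 to 35863549 an entry stood at 6.36 FPKM with 32 µM PFBS and 4.53 FPKM in controls, a ratio of 0.49 in the authors' deposited table (q = 0.00521). The overlapping entry of the other 2 tables was given at 35857415 to 35863625. It was higher at 32 µM than at 16 µM, with 5.82 FPKM at 32 µM and 4.20 FPKM at 16 µM, a ratio of 0.47 in the authors' deposited table (q = 0.0194). At 16 µM it was at 4.14 FPKM with PFBS and 4.08 FPKM in controls, a ratio of 0.02 in the authors' deposited table (q = 0.998). The 2 calls share the 32 µM samples and are not separate evidence. The second entry called between the doses, 61434196 to 61445685, stood at 6.32 FPKM at 32 µM and 5.03 FPKM at 16 µM, a ratio of 0.33 in the authors' deposited table (q = 0.0194). Its ratio to the control was 0.17 at 32 µM in the authors' deposited table (q = 0.251). The overlapping entry at 16 µM, 61441424 to 61445685, was shorter. It stood at 5.58 FPKM with PFBS and 6.23 FPKM in controls, a ratio of -0.16 in the authors' deposited table (q = 0.998). The ratios to the control thus had opposite signs, and neither passed.

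At 34839770 to 34840275 an entry rose at the lower dose, with 12.0 FPKM with 16 µM PFBS and 5.98 FPKM in controls, a ratio of 1.01 in the authors' deposited table (q = 0.0385). At 32 µM it stood at 8.06 FPKM with PFBS and 5.98 FPKM in controls, a ratio of 0.43 in the authors' deposited table (q = 0.384). At 54892619 to 54893522 an entry fell at the lower dose, with 4.38 FPKM with 16 µM PFBS and 7.94 FPKM in controls, a ratio of -0.86 in the authors' deposited table (q = 0.0219). At 32 µM the overlapping entry, 54892367 to 54893586, stood at 5.21 FPKM with PFBS and 5.54 FPKM in controls. The ratios of 32 µM over 16 µM PFBS at these places, -0.58 and 0.72, did not pass in the authors' deposited table (q = 0.51 and 0.0688), so a difference between the doses was not shown at either.

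At 48074172 to 48077219 an entry fell at the higher dose, with 16.2 FPKM with 32 µM PFBS and 20.3 FPKM in controls, a ratio of -0.32 in the authors' deposited table (q = 0.00521). At 58994444 to 58995453 another fell, with 2.08 FPKM with 32 µM PFBS and 3.51 FPKM in controls, a ratio of -0.75 in the authors' deposited table (q = 0.0158). Their ratios at 16 µM were -0.06 and -0.04 in the authors' deposited table, and their ratios between the doses, -0.25 and -0.72, did not pass (q = 0.115 and 0.423).

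**Figure D3:**
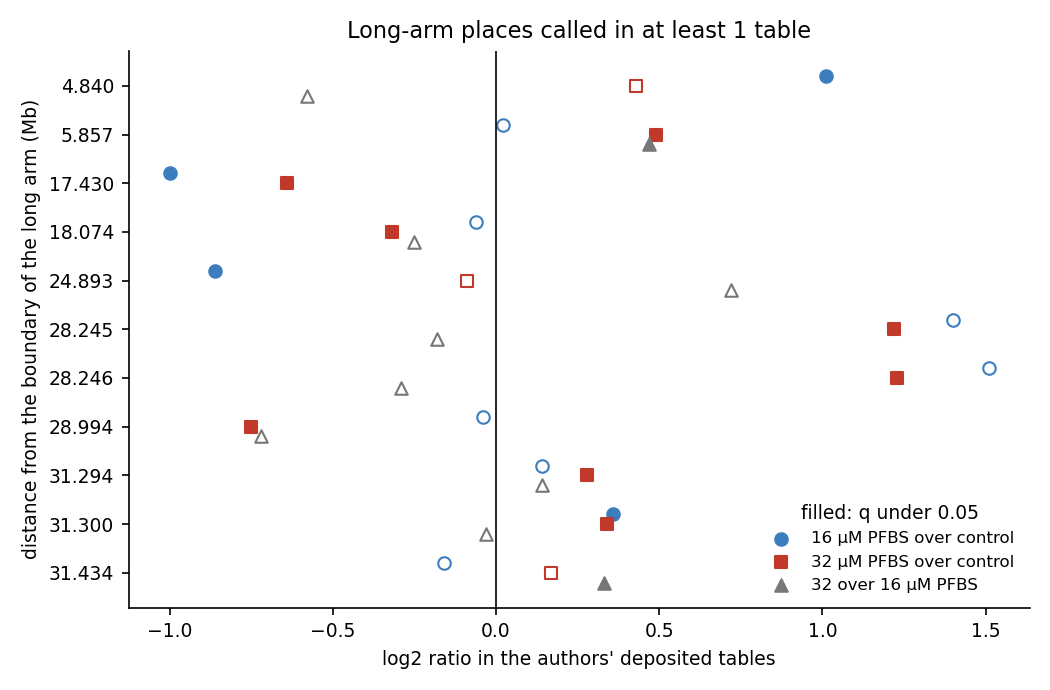
Log2 ratio from the authors' deposited tables at the 11 places of the long arm with a call in at least 1 table, by distance from the boundary in Mb (labels down the page, not to scale); circles are 16 µM PFBS over control, squares 32 µM PFBS over control and triangles 32 over 16 µM PFBS, and filled marks have a q-value under 0.05. The filled marks fall on both sides of 0, and 2 places carry a filled circle and a filled square.

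The 2 remaining calls belonged to a run of neighbouring unnamed entries that were all higher with PFBS where a table compared them with the control. This stretch, from 58245231 to 58283856, 38.6 kb long, was picked out after the values were seen. At 16 µM all 10 of its entries had positive ratios in the authors' deposited table, from 0.65 to 1.51 with a median of 1.22, and none passed the test (smallest q = 0.0723). At 32 µM all 9 that had an entry were positive, from 0.61 to 1.78 with a median of 0.84, and 2 passed in the authors' deposited table. Both comparisons use the same control samples, so the shared direction at the 2 doses is not separate evidence. Between the doses 9 of its 10 entries were lower at 32 µM, with a median ratio of -0.25 in the authors' deposited table, and none passed (q = 0.999 for each). The member at 58268926 to 58269032 had no entry in the table of 32 µM PFBS and control. At 16 µM it stood at 80.4 FPKM with PFBS and 31.8 FPKM in controls. Between the doses it stood at 23.9 FPKM at 32 µM and 81.6 FPKM at 16 µM. Its level at 32 µM was thus below that control level from another table, a difference that was not tested.

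The first called entry, 58245232 to 58245453, stood at 49.2 FPKM with 32 µM PFBS and 21.1 FPKM in controls, a ratio of 1.22 in the authors' deposited table (q = 0.00521). At 16 µM it stood at 54.6 FPKM with PFBS and 20.7 FPKM in controls, a ratio of 1.40 in the authors' deposited table (q = 0.0723). The second, 58246065 to 58247514, stood at 20.5 FPKM with 32 µM PFBS and 8.75 FPKM in controls, a ratio of 1.23 in the authors' deposited table (q = 0.0215). Its overlapping entry at 16 µM stood at 11.4 FPKM with PFBS and 3.97 FPKM in controls, a ratio of 1.51 in the authors' deposited table (q = 0.113).

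The members that did not pass included the longest of the run and the 2 with the highest levels. An entry of 20288 bases, 58248515 to 58268803, stood at 7.26 FPKM with 32 µM PFBS and 4.66 FPKM in controls, a ratio of 0.64 in the authors' deposited table (q = 0.458). At 58245703 to 58245829 an entry stood at 176 FPKM with 32 µM PFBS and 98.4 FPKM in controls, a ratio of 0.84 in the authors' deposited table (q = 0.306). At 58282845 to 58282955 an entry of 110 bases stood at 175 FPKM with 32 µM PFBS and 113 FPKM in controls, and its counterpart at 16 µM stood at 169 FPKM with PFBS and 108 FPKM in controls. The largest ratio, 1.78, belonged to 58247651 to 58247875, with 16.2 FPKM with 32 µM PFBS and 4.76 FPKM in controls in the authors' deposited table (q = 0.207). Entries of the flanks between 58.20 and 58.34 Mb had ratios of -0.21 to 0.59 at 16 µM and -1.53 to 0.08 at 32 µM in the authors' deposited table. Neighbouring models may share transcripts or reads of repeated copies, so the members of the run are not separate measurements; whether they belong to 1 transcript was not tested.

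**Figure D4:**
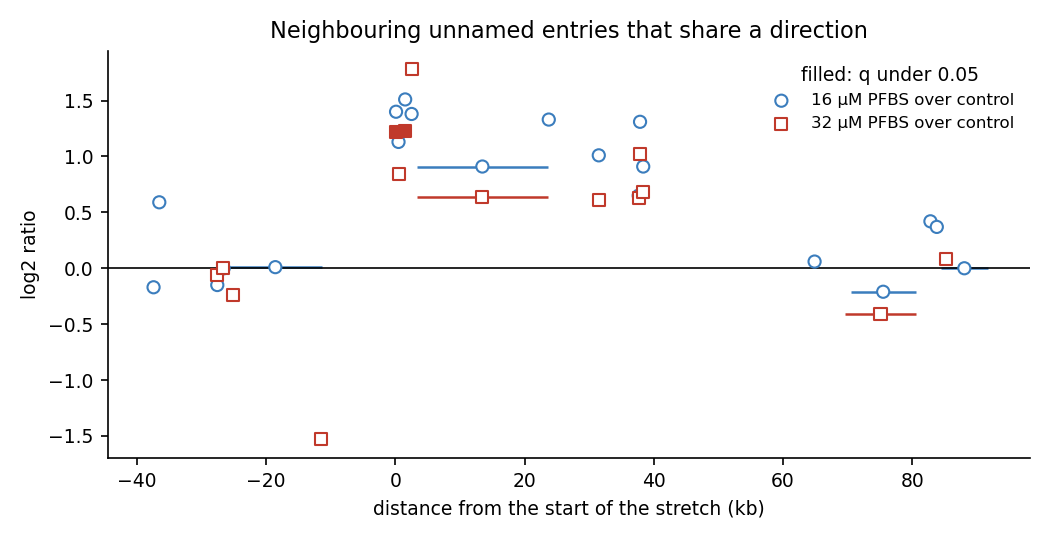
Log2 ratio of each entry in and around the stretch against the distance of its middle from the start of the stretch in kb, with horizontal lines for the span of the longer entries; circles are 16 µM PFBS over control, squares 32 µM PFBS over control, and filled squares have a q-value under 0.05. All marks between 0 and 38.6 kb lie at 0.61 or above, and the flanking marks lie at 0.59 or below. The member at 58268926 to 58269032 has a circle but no square, because it has no entry in the table of 32 µM PFBS and control.

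Over the arm as a whole there was no common direction. The median log2 ratio of its entries was 0.04 at 16 µM, 0.03 at 32 µM and -0.02 between the doses in the authors' deposited tables, against 0 on the rest of chromosome 4 and over all entries in each. Positive ratios made up 54.4% of the long-arm entries at 16 µM and 52.7% at 32 µM, against 48.0% and 47.9% on the rest. Without the stretch of 38.6 kb the medians were 0.03 at 16 µM and 0.01 at 32 µM, and 6 entries remained called at 32 µM in the authors' deposited table. Loci under 300 bases leaned upward at 32 µM. Of 33 on the long arm 81.8% were positive, with a median of 0.47, against 63.0% and 0.19 outside it. In the longer classes of span on the arm 42.9% to 50.7% were positive. Members of the stretch are among the short loci, and the difference was not tested.

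The ratios were more widely spread on the arm. The middle 50% of its entries lay between -0.15 and 0.26 at 32 µM, against -0.08 and 0.10 on the rest of the chromosome, in the authors' deposited table. A ratio of 0.5 or more in size was found in 20.2% of the long-arm entries and 8.22% of the rest at 32 µM, and in 23.4% and 8.40% at 16 µM. Between the doses, with no control involved, the shares were 23.1% on the long arm and 9.47% on the rest. Without the stretch of 38.6 kb the long-arm shares were 17.5% at 32 µM, 21.1% at 16 µM and 23.5% between the doses. The spread was wider on the arm in each of the 3 tables, which share their groups in pairs.

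The share of such ratios was next set out by level and by the span of the locus. Between 1 and 2 FPKM at 32 µM, 18.6% of 140 long-arm entries and 21.8% of 5734 other entries of the table had a ratio of that size. At 16 FPKM or more the shares were 22.2% of 27 long-arm entries and 2.03% of 5418 others. Among entries at 4 FPKM or more, loci under 300 bases made up 32.9% on the long arm and 3.51% elsewhere. Within these short loci the shares with such a ratio were 42.3% on the long arm and 39.6% elsewhere at 32 µM, and 63.0% and 37.2% at 16 µM. Among loci of 1000 bases or more they were 7.14%, or 3 of 42 entries, on the long arm and 1.09% elsewhere at 32 µM. Members of the 38.6 kb stretch, which was picked out after the values were seen, are among the long-arm entries with such a ratio. This holds between 4 and 16 FPKM, at 16 FPKM or more, among the short loci and among those of 1000 bases or more. The 6 such entries at 16 FPKM or more at 32 µM included the members starting at 58245232, 58245703, 58282845 and 58283013. The 8 between 4 and 16 FPKM included those starting at 58246065, 58247651, 58248515 and 58276651. The 3 entries of 1000 bases or more included the members starting at 58246065 and 58248515, with ratios of 1.23 and 0.64. The 11 short entries at 32 µM included those starting at 58245232, 58245703, 58247651, 58276651, 58282845 and 58283013. These shares by level and span were not recomputed without the stretch. They therefore cannot show whether the arm apart from the stretch exceeded the other entries at like level or span. Whether span sets the wider spread was not tested.

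**Figure D5:**
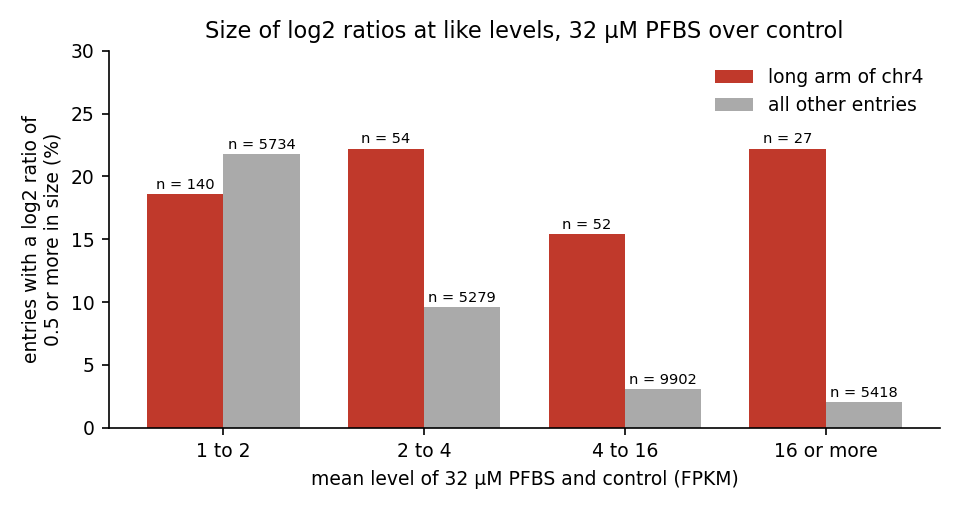
Share of entries in percent with a log2 ratio of 0.5 or more in size, 32 µM PFBS over control, by the mean FPKM of both groups, for the long arm and for all other entries of the table, with the number of entries above each bar. Entries with a mean under 1 FPKM, 4 on the long arm and 288 elsewhere, are not drawn. The members of the 38.6 kb stretch, picked out after the values were seen, are included in the bars of the long arm. Each member with an entry in this table has a ratio of 0.61 or above. From 1 FPKM the bars of the long arm lie between 15.4% and 22.2%, while those of the other entries are lower at higher levels, down to 2.03%.

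The most extreme ratios of the arm lay mostly at short entries. Of the 5 largest and the 5 smallest at 32 µM, among entries at 1 FPKM or more in both groups, 8 spanned under 1000 bases and 1 passed the test in the authors' deposited table. The locus 35802973 to 35803091, 118 bases long, stood at 36.3 FPKM with 32 µM PFBS and 7.11 FPKM in controls, a ratio of 2.35 in the authors' deposited table (q = 0.449). Between the doses 51278453 to 51278565 had a ratio of 2.34 and 58268926 to 58269032 one of -1.77 in the authors' deposited table, both short and neither called. The latter is a member of the stretch described above. Among named entries, 1 clone name was given at 58091744 to 58093972 in the 16 µM table. There it stood at 2.31 FPKM with 16 µM PFBS and 4.23 FPKM in controls, a ratio of -0.87 in the authors' deposited table. In the 32 µM table the same name was given at 58091836 to 58094896. There it stood at 4.66 FPKM with 32 µM PFBS and 4.26 FPKM in controls, a ratio of 0.13 in the authors' deposited table. Between the doses the name was given at 58091744 to 58094896. Its ratio there was 1.00 in the authors' deposited table and did not pass (q = 0.494).

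Entries on both sides of the boundary carried provisional and zinc finger names. Just inside, zgc:174703 and znf1069 shared the locus 32322142 to 32853887, with ratios of 0.29 and 0.08 at 32 µM in the authors' deposited table. Just outside, 5 entries shared a locus that starts at 29913631 and reaches 32295505, beyond the boundary. They belonged to zgc:174710, zgc:174653 and the zinc finger gene znf1051, with ratios of -0.20 to 0.49 at 32 µM in the authors' deposited table. The rule counts them with the rest of the chromosome because their locus starts before 30000000.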

How the data were processed

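Polyadenylated RNA of 9 samples in 3 groups was sequenced, and the authors deposited 3 tables, 1 per pair of groups. Each deposited table gives, per the file headers, a log2 FPKM for both groups, their log2 ratio, a q-value and a call. A check of every entry showed that a positive ratio means higher with PFBS or the higher dose, and that the authors' calls are q-values under 0.05. Per the submitters' processing notes, Cufflinks and danRer7 were used; the aligner, each tool's version, the gene annotation and the statistical test were not given in the sources used here. Identifiers differ between tables, so each was read as its own assembly, and entries were followed by name or largest overlap of loci. The tables hold no value per sample, so no error, depth or test of samples could be computed; unadjusted p-values were recovered from the q-values as upper bounds.

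Counts, medians and shares were computed with Python 3.11.15, pandas 2.3.3 and numpy 2.4.6, and checked on simulated data. By rule, the entries to be given were all called ones and the 10 highest and 10 highest named at 32 µM. The rule also took the 5 largest ratios in each direction per table at 1 FPKM or more, and 5 on each side of the boundary. Not all of these have values in the text. Some entries outside the rule, such as trim24, arfgap3 and psmb10, do. The members and lists were chosen with earlier results of these data known. Names were matched to RefSeq symbols of GRCz12tu, which served for names alone: of the long-arm names at 16 µM, 45 were current symbols, 6 were synonyms and 6 had no match.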

Additional observations from a re-analysis of the deposited data

How the results depend on the processing

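No paired analysis was possible because the tables hold 1 value per group; for the same reason leaving out a replicate could not be run. Values are given for the long arm, then for the rest of chromosome 4, in the order 16 µM, 32 µM and 32 over 16 µM where 3 are given. With a q-value under 0.01, 0 calls were left at 16 µM, 0 between the doses and 6 at 32 µM. Restricting to 5 FPKM or more gave 2.27 and 12.0, 2.15 and 12.2, and 2.43 and 12.0 entries per Mb, with 76.7% and 21.4%, 75.4% and 21.4%, and 78.2% and 21.1% unnamed. The same restriction closed or turned the gap in median level, to 11.4 and 12.0, 12.8 and 11.9, and 12.9 and 12.2 FPKM, which follows from leaving out the low entries. At 1 FPKM or more the medians at 16 µM were 1.84 and 5.28 FPKM. Named entries alone had median levels of 2.27 and 9.45, 3.44 and 9.58, and 2.42 and 9.65 FPKM. The median log2 ratio of the long arm turned with named entries alone, to -0.035 (-0.01 on the rest) at 16 µM and 0.04 (0 on the rest) between the doses. With unnamed entries alone the median at 32 µM was 0.02, below the 0.05 of the rest; the cause was not tested. Boundaries at 28 and 35 Mb, other thresholds and filters, 1 entry per locus and 2 alternatives chosen after the data were seen (without the 38.6 kb stretch, and spans of 300 bases or more) gave 111 recomputed summary values. Of these, 13 moved and 5 reversed against the rest of the chromosome. The other 93 stayed within 1.5 times the count or density reported, or within the 95% interval of the median or share over entries. That interval takes entries as independent. They are not replicates and some share a locus, so it is a yardstick alone. Among the 93 values, the median ratio at 32 µM was 0.01 without the stretch and 0 with spans of 300 bases or more. The calls at 32 µM were 6 without the stretch and 7 with such spans. With 1 FPKM added to every value all 14 called ratios kept their direction. Median levels thus changed with the filters by level and with named entries alone. The small median ratios reversed against the rest only with named or unnamed entries alone.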
